A study of Homo sapiens with 4 samples.

Results

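The genes of the CDK4/6 step of the cell cycle were followed in KMS11, an established myeloma line (myeloma is a cancer of plasma cells). They were chosen by name: the D cyclins CCND1, CCND2 and CCND3, the kinases CDK4 and CDK6, their substrate RB1, the INK4 inhibitors CDKN2A, CDKN2C and CDKN2D, and the inhibitor CDKN1B. These are 10 of the 62069 genes counted, and all 10 passed the filter on low counts that left 17172 genes to test.

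RNA was sequenced in 4 libraries, 2 from cells that received a control shRNA and 2 from cells that received an shRNA against NSD2. NSD2 is a histone methyltransferase gene that the t(4;14) translocation of this line joins to the immunoglobulin heavy chain locus. Both groups were infected with lentivirus in medium with 10 µg/mL polybrene, the medium was changed, and RNA was taken 72 h later, 96 h after the shRNAs were given. Each library was prepared from 1 µg of total RNA with a TruSeq kit. The labels name 1 cell line and give neither the sequence of the shRNA nor any selection of infected cells. They also leave unsaid whether libraries of a group are separate cultures, and every p-value here therefore reflects the variation among these 4 libraries, part of which may be technical.

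D cyclins bind CDK4 and CDK6 in G1 phase, and the active complexes phosphorylate RB1 and the related pocket proteins, which then let go of the E2F factors that drive the genes of S phase. The INK4 proteins bind CDK4 and CDK6 and keep them from their cyclins, whereas the protein of CDKN1B, called p27, binds whole cyclin and kinase complexes and is best known for holding back CDK2. Raised expression of a D cyclin is a common feature of myeloma, and tumours with t(4;14) usually express CCND2.

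Promoter windows from RefSeq (assembly GRCh38.p14) run from 250 bases before to 50 after a start annotated for a gene. Such a start is not always the gene's first base. Windows were found for 8 of the 10 genes (all but CCND1 and CCND2), 14 windows in all. CDK4 is shown as an example of a window with matches to both motifs described below. Windows of CDK6 and CDKN2C also held both and are not printed. CDKN2A is shown because it has windows at separate starts, of which the start at higher coordinates gives ARF and the other the INK4A inhibitor, and the deposited counts are 1 number for both. Each sequence is written 5′ to 3′ on the strand of its gene, which is the minus strand for all of them. Capitals mark matches on either strand to the E box CACGTG, bound by MYC among others, and to the GC box GGGCGG, bound by SP1 and its relatives, the latter printed as CCGCCC where it lies on the other strand.
CDK4, chr12:57752261-57752560: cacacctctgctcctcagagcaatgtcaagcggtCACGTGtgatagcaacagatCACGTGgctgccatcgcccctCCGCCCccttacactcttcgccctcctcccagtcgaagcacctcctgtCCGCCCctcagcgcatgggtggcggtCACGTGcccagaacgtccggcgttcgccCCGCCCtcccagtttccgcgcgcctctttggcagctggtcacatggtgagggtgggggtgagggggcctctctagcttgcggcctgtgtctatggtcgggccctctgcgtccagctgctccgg
CDKN2A, chr9:21995275-21995574: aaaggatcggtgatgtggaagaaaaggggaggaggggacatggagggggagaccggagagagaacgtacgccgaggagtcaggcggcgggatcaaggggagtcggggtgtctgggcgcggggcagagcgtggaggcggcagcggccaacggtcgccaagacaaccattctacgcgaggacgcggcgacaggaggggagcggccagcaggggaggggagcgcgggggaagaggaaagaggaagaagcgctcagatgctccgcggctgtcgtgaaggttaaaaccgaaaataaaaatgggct
CDKN2A, chr9:21974808-21975107: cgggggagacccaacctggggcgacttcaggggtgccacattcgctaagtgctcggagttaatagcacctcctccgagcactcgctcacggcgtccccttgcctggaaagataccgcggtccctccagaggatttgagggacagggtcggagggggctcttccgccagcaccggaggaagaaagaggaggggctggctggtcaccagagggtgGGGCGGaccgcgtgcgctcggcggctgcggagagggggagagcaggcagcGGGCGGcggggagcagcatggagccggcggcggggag
The CDK4 window held 3 E boxes, 216, 196 and 101 bases before the start, and 3 GC boxes, 175, 127 and 73 bases before it. At CDKN2A the window at higher coordinates held neither motif. The other CDKN2A window held 2 GC boxes, 37 bases before and 13 bases after the start. Of the 14 windows, 4 held an E box (CDK4, CDK6 and 2 windows of CDKN2C) and 9 held a GC box. Among all 35116 windows of the same length, 7.26% held an E box and 45.0% a GC box. The E2F motifs TTTCCCGC and TTTGGCGC, searched on both strands, occurred in 0 of the 14 windows and in 1.63% and 0.652% of all windows. The only window of RB1 is built on a start 173 kb inside the gene from its first base, so the sequence before that first base was not searched. Starts inside the gene also underlie the windows of CCND3 (1.35, 108 and 111 kb). The same holds for windows of CDK6 (2.61 kb), CDKN2A (20.5 kb) and CDKN2C (7.96 and 9.50 kb). A match describes letters only, and no binding was measured.

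Total fragments counted ranged from 46728940 to 55059566 per library. Mitochondrial genes took 5.82% to 5.89% of them in 3 libraries and 6.81% in the library labelled knockdown 2. All 8 plasma cell markers were found, 7 of them with at least 1 CPM (the count of a gene over the TMM-scaled size of its library) in every library, and their summed level ranged from 3200 to 3583 CPM. Among them SLAMF7, a surface receptor, was lower in the libraries labelled knockdown (log2 fold change -1.09, adjusted p = 0.000952 in edgeR), as was CD38 (log2 fold change -2.82, adjusted p = 0.0284 in edgeR, 0.0525 with robust empirical Bayes), which stood at 1.54 CPM or less throughout. Summed markers of mature B cells, 1 of which (CR2) made up nearly all of the sum, stood at 35.2 to 42.8 CPM. The summed markers of T cells, myeloid cells and stroma reached at most 4.45, 2.67 and 1.23 CPM in any library, and no fragment of CD3D or LUM was counted. The part of these markers in the results below was not tested.

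NSD2, the gene the shRNA was aimed at (ENSG00000109685, chromosome 4, 1873151 to 1983934, GRCh37), had 1121 CPM in control library 1 and 1471 CPM in control library 2. It stood at 919 and 1156 CPM in libraries 1 and 2 labelled knockdown. The groups overlapped, because library 2 labelled knockdown lay above control library 1. This gave a log2 fold change of -0.32 (95% interval -0.66 to 0.02, SE 0.150) and an adjusted p of 0.244 (edgeR's quasi-likelihood test with Benjamini-Hochberg adjustment). The call depended on the libraries, the filter and the terms in the fit. The log2 fold change was -0.50 without control library 1 (adjusted p = 0.0196) and -0.50 without library 2 labelled knockdown (0.0268), but -0.12 without control library 2 (0.731). With all libraries and no filter on low counts it was -0.32 and passed (adjusted p = 0.0173). With terms for GC content and exonic length in the fit it was -0.01 (adjusted p = 0.974). The median over all tested genes was 0.07 in that fit. With a term for the library number in the fit, NSD2 passed (adjusted p = 0.0197 in edgeR). Between same-numbered libraries, which the labels do not call pairs, its log2 ratio was -0.29 for number 1 and -0.35 for number 2. With all libraries, the default filter and group as the only term, NSD2 did not pass, and the groups overlapped. The libraries of the second group are therefore named here by their label.

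None of the 10 genes changed past the threshold between the groups. In edgeR 0 of 10 were lower and 0 higher at an adjusted p below 0.05, beside 4.19% of all tested genes called lower and 1.74% called higher. An unadjusted p below 0.05 was reached by 2 of 10, CCND1 and RB1, both with negative fold changes, beside 22.5% of all tested genes. DESeq2 called 1 of the 10 lower, CCND1, beside 4.17% of its tested genes, and limma-voom called 0. Both groups stood apart, with the libraries labelled knockdown lower, for 3 of the 10 genes (CCND1, CDK6 and RB1) and, with them higher, for 1 (CDKN1B). Over all tested genes the shares were 26.2% and 27%, so 3 of 10 is near the background and 1 of 10 is below it. The median log2 fold change of the 10 genes was -0.13, beside -0.00 over all tested genes, and 6 of the 10 values were below 0. In these bulk libraries, fewer cells in a given phase of the cycle and less RNA per cell cannot be told apart.

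**Figure D1:**
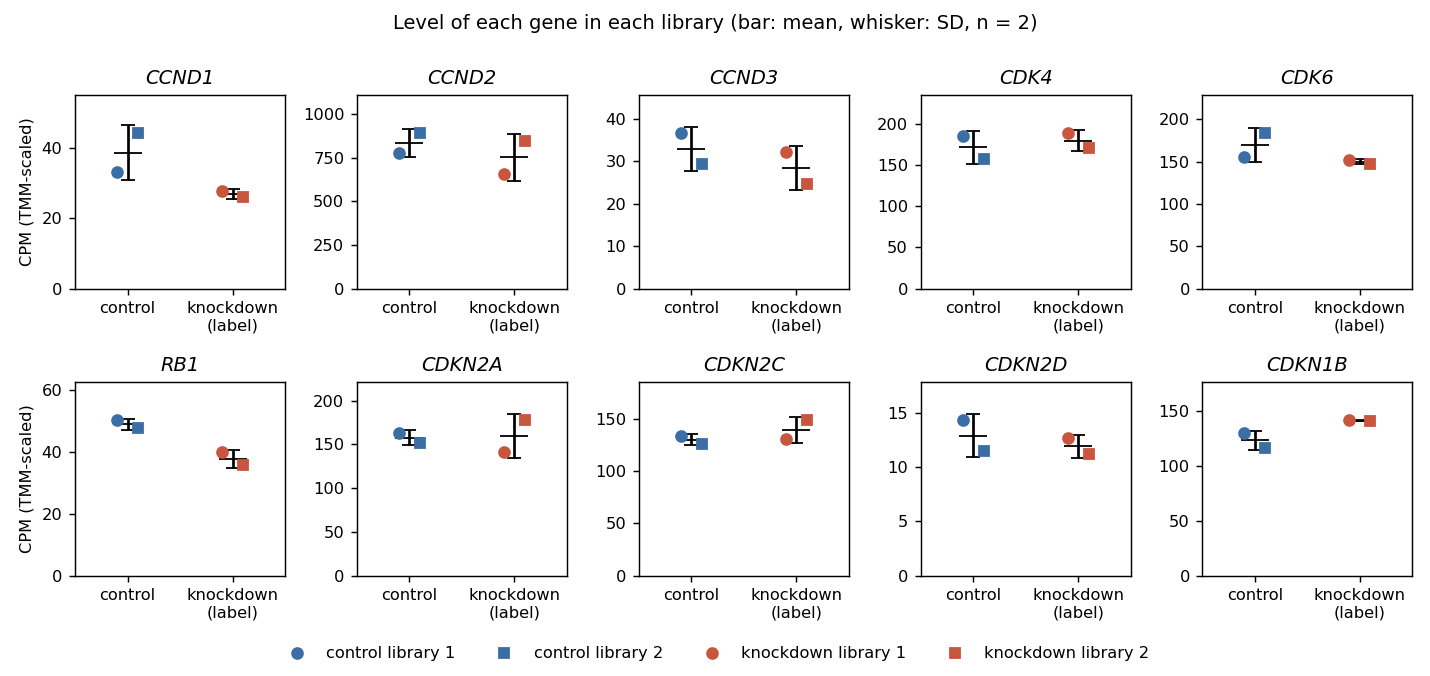
Level of each of the 10 genes in CPM on TMM-scaled libraries (y axis, from 0, own scale per panel) in the control libraries (blue) and those labelled knockdown (red), circle for library 1 and square for library 2, with the mean as a bar and the SD (n = 2) as whiskers. For CCND1, CDK6 and RB1 both red points lie below both blue ones, and for CDKN1B both lie above.

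CCND1, cyclin D1 (ENSG00000110092, chromosome 11, 69455855 to 69469242, GRCh37), is named in the title of the study as a gene under the control of NSD2. Of the 10 genes it had the log2 fold change farthest from 0. It was counted at 33.2 CPM in control library 1, 44.3 CPM in control library 2, and 27.9 and 26.0 CPM in libraries 1 and 2 labelled knockdown. Both of the latter lay below both controls, and control library 2 stood well above the other three. The mean was 38.7 ± 7.80 CPM (SD, n = 2) in the controls and 26.9 ± 1.34 CPM (SD, n = 2) in the libraries labelled knockdown, a difference of -30.5%. Its log2 fold change came to -0.52 (95% interval -0.83 to -0.22, SE 0.136), and the adjusted p of 0.0543 in edgeR missed the threshold. Of all tested genes, 10.7% had a log2 fold change at or below that of CCND1.

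The call on CCND1 turned on single libraries. Without control library 1 the log2 fold change was -0.71 and passed the threshold (adjusted p = 6.65e-05, edgeR). Without library 1 labelled knockdown it was -0.57 and passed too (adjusted p = 0.0124). Without control library 2, where CCND1 was highest, it was -0.31 with an adjusted p of 0.145. DESeq2 gave -0.52 with an adjusted p of 0.0178. An opposite-strand neighbour, ORAOV1, shares 498 bp of exon with CCND1, 10.3% of the exonic length of CCND1, and the counting took no account of strand. ORAOV1 was counted with 733 and 742 fragments in the control libraries and 783 and 968 in those labelled knockdown (log2 fold change 0.17, adjusted p = 0.441 in edgeR), against 1349 to 2087 fragments for CCND1.

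CCND2, cyclin D2 (ENSG00000118971, chromosome 12, 4382938 to 4414516, GRCh37), was by far the most abundant D cyclin. It had 779 CPM in control library 1, 889 CPM in control library 2, and 655 and 848 CPM in libraries 1 and 2 labelled knockdown. The groups overlapped, and in each group library 2 was the higher. In edgeR the log2 fold change was -0.15 (95% interval -0.45 to 0.15, adjusted p = 0.550). CCND2-AS1 on the opposite strand shares 126 bp of its exons and had 15 to 29 fragments per library, few beside CCND2.

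CCND3, cyclin D3 (ENSG00000112576, chromosome 6, 41902671 to 42018095, GRCh37), had 36.5 CPM in control library 1, 29.2 CPM in control library 2, and 32.0 and 24.6 CPM in libraries 1 and 2 labelled knockdown. The groups overlapped. Its log2 fold change was -0.22 (95% interval -0.55 to 0.12, adjusted p = 0.432 in edgeR). All fold changes of the D cyclins were thus below 0, and 0 of 3 passed the threshold.

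Levels were compared between genes as TPM, which divides counts by exonic length before scaling each library to a common total. CCND2 made up 89.1% ± 0.466 (SD, n = 2) of the summed TPM of the D cyclins in the control libraries and 90.4% ± 2.57 (SD, n = 2) in those labelled knockdown. CCND1 took 5.61% and 6.60% in control libraries 1 and 2 and 5.59% and 4.19% in libraries 1 and 2 labelled knockdown. The groups did not overlap for CCND1, but control library 1 and library 1 labelled knockdown were almost level. The share of CCND3 was 4.79% ± 1.16 (SD, n = 2) in the controls and 4.73% ± 1.58 (SD, n = 2) in the others. The ratio of CCND2 to CCND1 in TPM was 15.8 and 13.6 in control libraries 1 and 2 and 15.8 and 22.0 in libraries 1 and 2 labelled knockdown. CCND2 therefore outweighed CCND1 more than 10-fold in every library, and the higher ratio was seen in 1 library only. No test was run on these shares, since an exact permutation test on 2 against 2 libraries cannot go below p = 0.333 (two-sided).

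**Figure D2:**
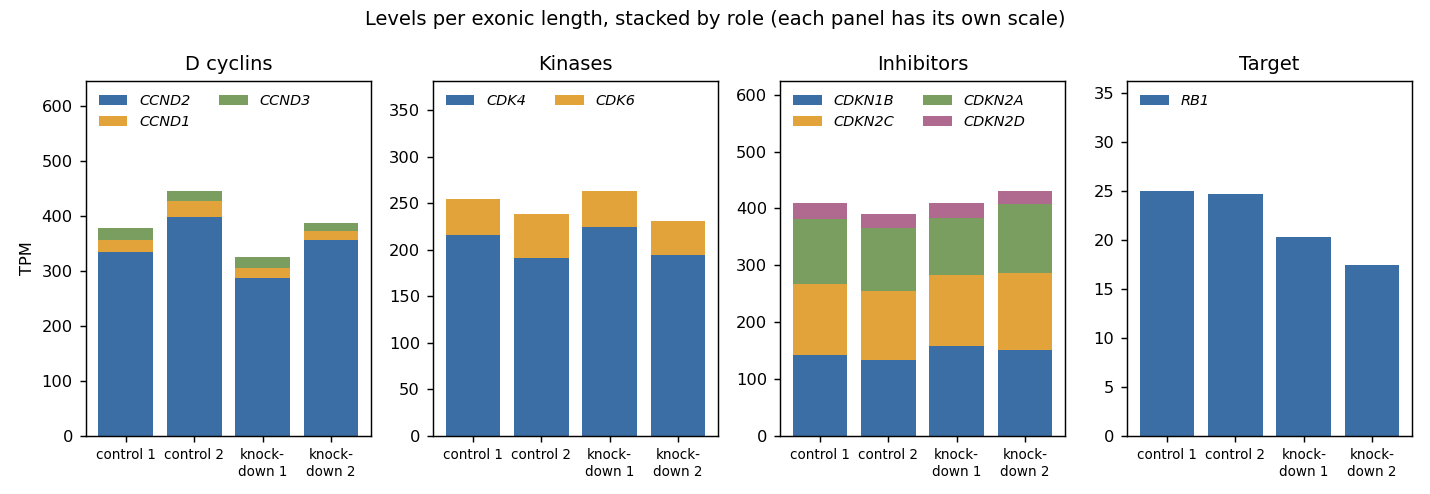
Stacked bars of TPM (y axis from 0, own scale per panel) in each of the 4 libraries for the D cyclins, the kinases, the inhibitors and RB1. CCND2 forms 88.6% to 92.2% of the D cyclin bar in every library, and CDK4 79.9% to 85.2% of the kinase bar.

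CDK4, a kinase that pairs with the D cyclins (ENSG00000135446, chromosome 12, 58142034 to 58149796, GRCh37), had 185 CPM in control library 1, 158 CPM in control library 2, and 189 and 171 CPM in libraries 1 and 2 labelled knockdown. The groups overlapped. In edgeR the log2 fold change was 0.07 (95% interval -0.18 to 0.31, adjusted p = 0.765). TSPAN31 on the opposite strand shares 845 bp with the exons of CDK4, 32.0% of their length, so fragments there cannot be told apart without strand. TSPAN31 was counted with 1575 to 1954 fragments per library (log2 fold change -0.11, adjusted p = 0.580 in edgeR).

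CDK6, the other kinase of this step (ENSG00000105810, chromosome 7, 92234235 to 92465908, GRCh37), had 155 CPM in control library 1, 184 CPM in control library 2, and 152 and 148 CPM in libraries 1 and 2 labelled knockdown. The groups did not overlap, though control library 1 and library 1 labelled knockdown were close. In edgeR the log2 fold change was -0.18 (95% interval -0.41 to 0.06, adjusted p = 0.365). With terms for GC content and exonic length in the fit it was 0.03, so its sign depended on that choice. The median over all tested genes was 0.07 in that fit and -0.00 without these terms. In TPM, CDK4 exceeded CDK6 by 5.53-fold and 3.98-fold in control libraries 1 and 2 and by 5.74-fold and 5.35-fold in libraries 1 and 2 labelled knockdown, and these ratios overlapped between the groups.

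RB1, the pocket protein that D cyclin kinases phosphorylate (ENSG00000139687, chromosome 13, 48877887 to 49056122, GRCh37), came next by the size of its log2 fold change. It had 50.1 CPM in control library 1, 47.5 CPM in control library 2, and 39.8 and 35.7 CPM in libraries 1 and 2 labelled knockdown. Replicates were close in both groups, and both libraries labelled knockdown lay below both controls. The mean was 48.8 ± 1.84 CPM (SD, n = 2) in the controls and 37.7 ± 2.89 CPM (SD, n = 2) in the libraries labelled knockdown, a difference of -22.6%. Its log2 fold change came to -0.37 (95% interval -0.59 to -0.15, SE 0.0996), and the adjusted p of 0.0612 in edgeR missed the threshold.

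Of all tested genes, 15.9% had a log2 fold change at or below that of RB1. Leaving out control library 2 took RB1 past the threshold (log2 fold change -0.41, adjusted p = 0.0263 in edgeR), whereas leaving out library 2 labelled knockdown gave -0.30 with an adjusted p of 0.429. DESeq2 gave -0.36 with an adjusted p of 0.0624. Without a filter on low counts, which left 31645 genes to test, both CCND1 (adjusted p = 0.000511) and RB1 (adjusted p = 0.0254) passed in edgeR, beside 4.71% of all genes called lower in that fit. No other tested gene overlapped RB1.

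**Figure D3:**
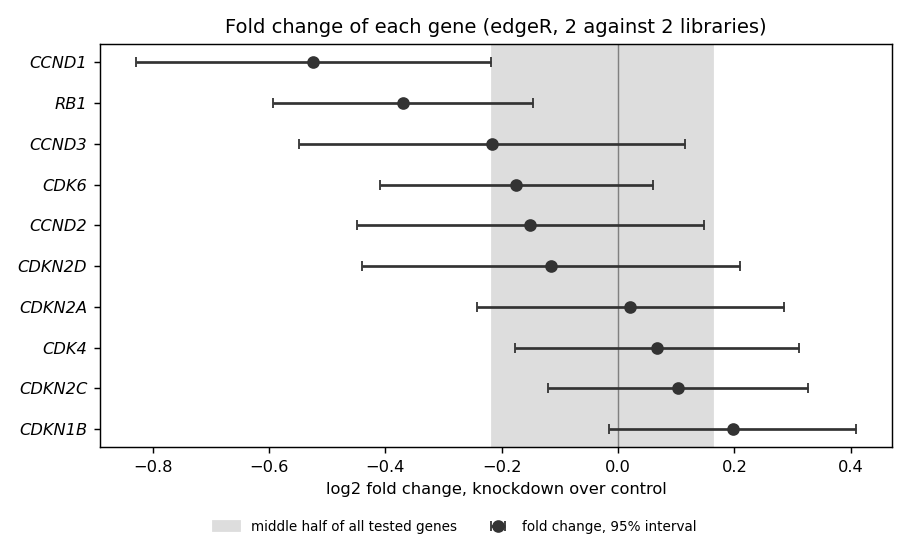
Log2 fold change of each gene, libraries labelled knockdown over control (x axis), with its 95% interval from edgeR as a line, genes in order of fold change; the grey band runs from the lower to the upper quartile of all tested genes (-0.22 to 0.16). The intervals of CCND1 and RB1 lie below 0, and those of the other 8 genes include 0.

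Of the INK4 genes, CDKN2A, whose products hold back CDK4 and CDK6 (INK4A) and stabilise p53 (ARF), lies on chromosome 9 (ENSG00000147889, 21967751 to 21995300, GRCh37). It had 164 CPM in control library 1, 151 CPM in control library 2, and 142 and 177 CPM in libraries 1 and 2 labelled knockdown. The control values lay between those of the other group. In edgeR the log2 fold change was 0.02 (95% interval -0.24 to 0.28, adjusted p = 0.943). The counts sum transcripts from both starts printed above, and CDKN2B-AS1 on the opposite strand shares 341 bp of exon, 7.75% of the length, with 201 to 251 fragments per library.

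CDKN2C, the inhibitor p18 (ENSG00000123080, chromosome 1, 51426417 to 51440305, GRCh37), had 134 CPM in control library 1, 126 CPM in control library 2, and 131 and 149 CPM in libraries 1 and 2 labelled knockdown. The groups overlapped, and the log2 fold change was 0.10 (95% interval -0.12 to 0.33, adjusted p = 0.594 in edgeR). CDKN2D, the inhibitor p19 (ENSG00000129355, chromosome 19, 10677138 to 10679735, GRCh37), had the lowest CPM of the 10 genes. It had 14.3 CPM in control library 1, 11.5 CPM in control library 2, and 12.7 and 11.2 CPM in libraries 1 and 2 labelled knockdown. The groups overlapped there too, and the log2 fold change was -0.12 (95% interval -0.44 to 0.21, adjusted p = 0.692 in edgeR).

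The INK4 genes together held 268 and 257 TPM in control libraries 1 and 2 and 252 and 279 TPM in libraries 1 and 2 labelled knockdown, values that overlapped. CDKN2C made up 47.0% ± 0.798 (SD, n = 2) of that sum in the controls and 48.8% ± 0.578 (SD, n = 2) in the others, and these values did not overlap. CDKN2A made up 42.8% ± 0.179 (SD, n = 2) and 41.9% ± 2.33 (SD, n = 2), and CDKN2D the small remainder. In summed TPM the INK4 genes thus stood about level with both kinases together. The ratios were 1.05 and 1.07 in control libraries 1 and 2 and 0.957 and 1.21 in libraries 1 and 2 labelled knockdown. The count of CDKN2A does not separate INK4A from ARF, and part of the CDK4 exons is shared with TSPAN31. These ratios therefore do not give INK4 transcripts per kinase transcript.

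CDKN1B, which encodes p27 (ENSG00000111276, chromosome 12, 12867992 to 12875305, GRCh37), had the most positive log2 fold change of the 10 genes. It had 130 CPM in control library 1, 117 CPM in control library 2, and 142 and 141 CPM in libraries 1 and 2 labelled knockdown. Both of the latter lay above both controls. The mean was 123 ± 9.09 CPM (SD, n = 2) in the controls and 141 ± 0.388 CPM (SD, n = 2) in the others. The log2 fold change was 0.20 (95% interval -0.02 to 0.41), and the adjusted p of 0.258 in edgeR did not pass the threshold. The ratio of CDKN1B to the summed D cyclins in TPM was 0.338 ± 0.0544 (SD, n = 2) in the controls and 0.439 ± 0.0686 (SD, n = 2) in the others. These did not overlap either, but the nearest values, 0.377 in control library 1 and 0.391 in library 2 labelled knockdown, were close.

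For the 8 genes other than CCND1 and RB1, the data bounded the difference rather than showing that there was none. All 8 of their 95% intervals included 0 and lay inside a 1.5-fold change, from 0.683-fold to 1.33-fold. Leaving out 1 library turned the sign of CCND2, CDK4, CDKN2A and CDKN2D. CCND3 ran from -0.41 to -0.04 and CDKN2C from 0.00 to 0.20 over the 15 alternatives, so both came close to 0 without changing sign. CCND1, RB1 and CDKN1B also kept their signs in all 15.

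**Figure D4:**
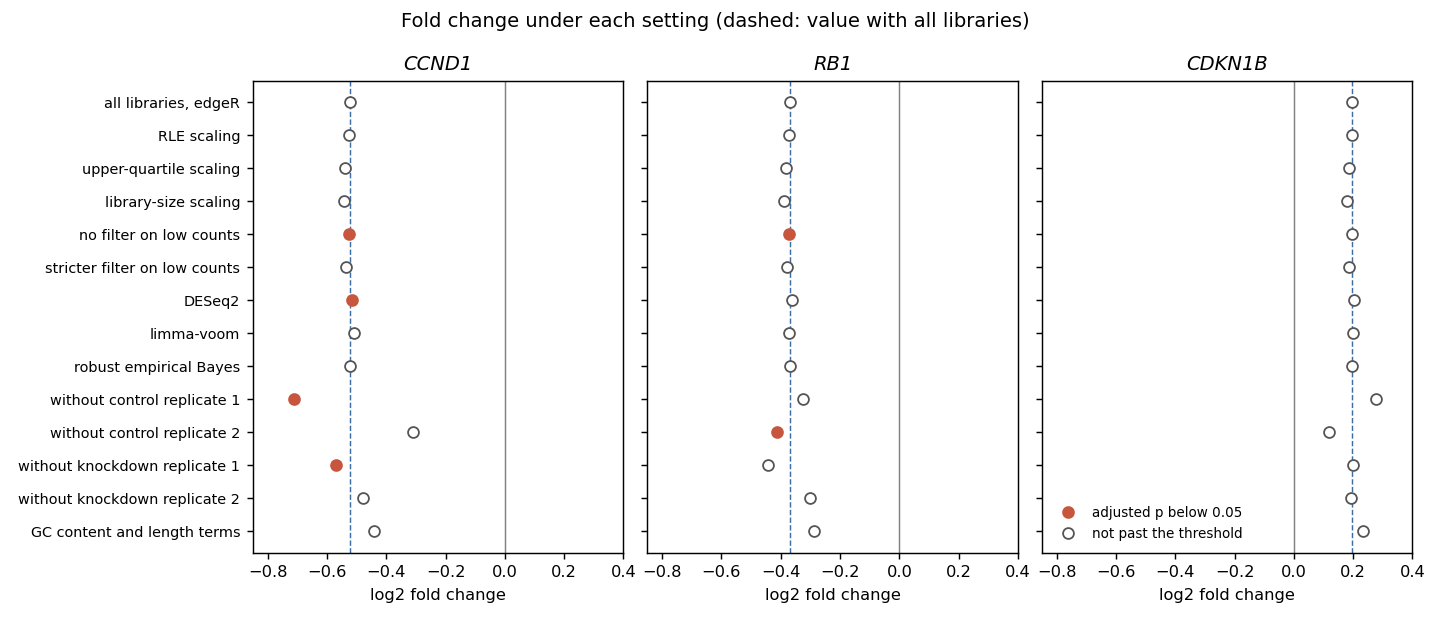
Log2 fold change of CCND1, RB1 and CDKN1B (x axis) with all libraries and under 13 of the 15 alternative settings (rows), filled red where the adjusted p was below 0.05; the dashed line is the value with all libraries. CCND1 ran from -0.71 to -0.31 and passed in 4 of the 13, RB1 from -0.44 to -0.29 and passed in 2, and CDKN1B from 0.12 to 0.28 and passed in 0; the 2 settings not drawn use a replicate block, and there CCND1 and RB1 passed in both and CDKN1B in 1.

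Over the 4 libraries the order of mean level in TPM was CCND2 (344), CDK4 (206), CDKN1B (146), CDKN2C (126), CDKN2A (112), CDK6 (40.6), CDKN2D (25.7), RB1 (21.8), CCND1 (21.2) and CCND3 (18.0). CCND2, the leading gene, ran from 288 to 398 TPM and CDK4 from 191 to 224 TPM, without overlap. The ranges of CDKN1B and CDKN2C overlapped, although CDKN1B was the higher in 4 of 4 libraries. The last 4 genes overlapped each with its neighbour in this order, so their ranks are not distinguished. CCND1 was above CCND3 in 2 of 4 libraries.

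The 5 genes most like CCND1, by Euclidean distance of centred log2 CPM over the 4 libraries among 10538 genes with at least 5 CPM, were LUZP1 (distance 0.03), PUS7L (0.05), ATP11A (0.08), SETBP1 (0.08) and SEPTIN3 (0.09). LUZP1 had 17.1 CPM in control library 1, 23.3 CPM in control library 2, and 14.6 and 13.3 CPM in libraries 1 and 2 labelled knockdown, the same shape as CCND1 with its high control library 2. The 5 were picked for values like those of CCND1, so fold changes near that of CCND1 follow from the choice. With all libraries, ATP11A was the only 1 of the 5 that passed the threshold (log2 fold change -0.60, adjusted p = 0.0295 in edgeR, 0.0621 with GC content and length terms). Of the other nine genes of the set, CDK6 (0.36) and RB1 (0.38) were nearest to CCND1 and CDKN1B (0.82) the farthest.

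Of the 20 nearest tested genes on either side of the 10, 1 was lower and 0 were higher in edgeR. Over all tested genes the shares were 4.19% and 1.74%, so 1 of 20 is near the background. The lower one was SAMD9, an interferon-responsive gene that starts 263 kb beyond CDK6. It had 38.4 ± 2.22 CPM (SD, n = 2) in the controls and 28.1 ± 0.636 CPM (SD, n = 2) in the libraries labelled knockdown (log2 fold change -0.45, adjusted p = 0.0283). It no longer passed without library 1 labelled knockdown (adjusted p = 0.0577) or library 2 so labelled (0.127), nor with GC content and length terms (0.0502). Around CCND1, the nearest tested genes were ENSG00000260877, 269 kb away (log2 fold change -0.50, adjusted p = 0.485), and FADD, 580 kb away (log2 fold change -0.14, adjusted p = 0.540). Around RB1, ITM2B had a log2 fold change of -0.24 (adjusted p = 0.160) and RCBTB2 one of -0.16 (adjusted p = 0.624), both from edgeR.

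Around this step, 71 further genes of the pathway in 8 lists were examined, and 3 fell and 1 rose past the threshold in edgeR. Over all tested genes 4.19% were called lower and 1.74% higher, so both counts are near the background. E2F7, a repressor of the E2F family, had 26.7 CPM in control library 1, 27.2 CPM in control library 2, and 16.7 and 13.4 CPM in libraries 1 and 2 labelled knockdown. Its log2 fold change came to -0.84 (95% interval -1.13 to -0.55, SE 0.128, adjusted p = 0.00588 in edgeR). It was the only 1 of 10 E2F and DP factors past the threshold. Of the 10 values 5 were below 0 and 5 above, with a median of -0.01. E2F8 had a log2 fold change of -0.47 (95% interval -0.81 to -0.12) and did not pass (adjusted p = 0.112 in edgeR). E2F7 passed the threshold in 15 of 15 alternatives.

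Of 6 genes for cyclin E, cyclin A, CDK2 and its activator, 1 fell: CCNE2, a cyclin E, with a log2 fold change of -0.45 (adjusted p = 0.0333 in edgeR). All 6 values were below 0, with a median of -0.34, and CCNE2 no longer passed when control library 2 (adjusted p = 0.0579) or library 2 labelled knockdown (0.154) was left out. Of 19 E2F targets of S phase, 1 fell past the threshold. It was RRM2, a subunit of ribonucleotide reductase, with a log2 fold change of -0.73 (adjusted p = 0.0137 in edgeR) and a call in 15 of 15 alternatives. The median of the 19 was -0.09.

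Of 14 genes for turnover of D cyclins and p27, 0 fell and 1 rose past the threshold. Of the 14 values 5 were below 0 and 9 above. The lowest was that of SKP2, -0.45 (95% interval -0.74 to -0.15), which did not pass (adjusted p = 0.0841 in edgeR). DDB1, the adaptor that links substrate receptors to CUL4 ubiquitin ligases, had 394 CPM in control library 1, 469 CPM in control library 2, and 554 and 653 CPM in libraries 1 and 2 labelled knockdown. The groups did not overlap, and the log2 fold change was 0.48 (95% interval 0.21 to 0.75, SE 0.122, adjusted p = 0.0478 in edgeR). With GC content and length terms, DDB1 had a log2 fold change of 0.75 (adjusted p = 0.00692 in edgeR). The median over all tested genes was 0.07 there. DDB1 was called in 10 of 15 alternatives. The call was lost with upper-quartile scaling (adjusted p = 0.0650), library-size scaling (0.0684), a stricter filter (0.0695), and without control library 1 (0.0769) or library 2 labelled knockdown (0.223).

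In the 4 remaining lists 0 genes passed the threshold in edgeR. An unadjusted p below 0.05, which 22.5% of all tested genes reached, was counted in each: the other pocket proteins RBL1 and RBL2 (2 of 2, median log2 fold change -0.24), other CDK inhibitors (2 of 4, median -0.17), genes that assemble and activate CDK4 and CDK6 (0 of 4, median 0.17) and genes of G2 and mitosis (2 of 12, median 0.06). In the lists with a call, an unadjusted p below 0.05 was reached by 2 of 10 E2F and DP factors and 5 of 14 turnover genes. It was also reached by 2 of 6 genes for cyclin E, cyclin A and CDK2 and 1 of 19 E2F targets. DESeq2 called 5 of the 71 genes lower, beside 706 of 16920 over all genes it tested. Over all 71 the median log2 fold change was -0.04. In edgeR, 3 of 71 called lower and 1 called higher stand beside 719 and 299 of 17172 over all tested genes.

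**Figure D5:**
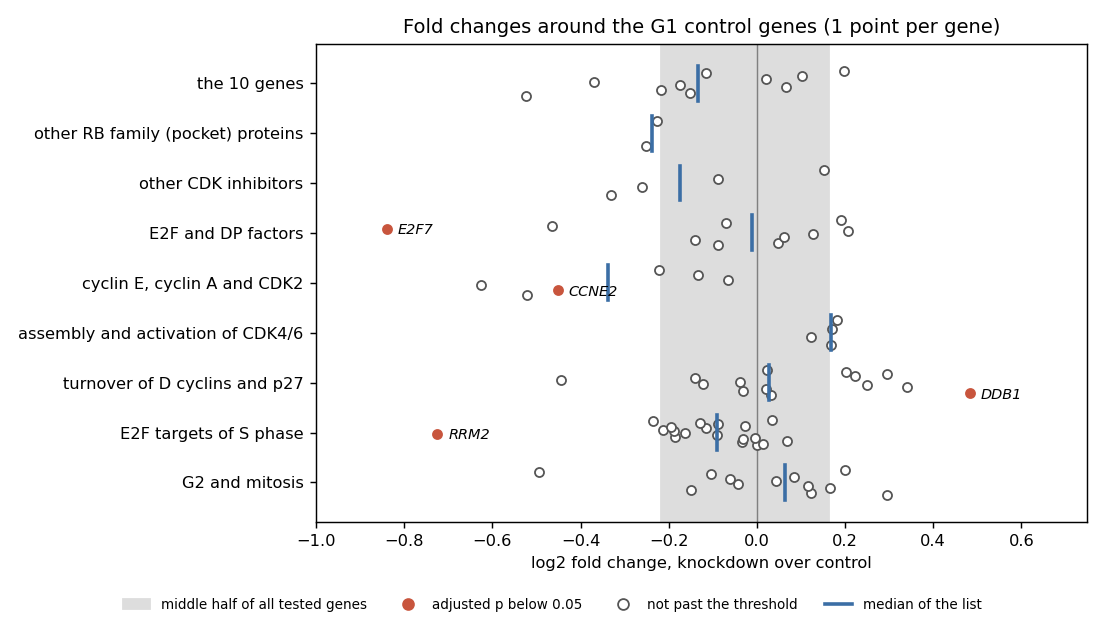
Log2 fold change in edgeR, libraries labelled knockdown over control (x axis), of the 10 genes and of the 71 genes in 8 pathway lists (rows, 1 point per gene, vertical spread within a row for legibility only), with filled red points past the threshold, a blue line at each list's median and a grey band from the lower to the upper quartile of all tested genes. Only E2F7, CCNE2, RRM2 and DDB1 are filled.

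With GC content and exonic length in the fit, the calls over all genes went from 719 lower and 299 higher to 621 lower and 667 higher. The 10 genes still had 0 calls in either direction. CCND1 then had a log2 fold change of -0.44 (adjusted p = 0.0685 in edgeR) and RB1 one of -0.29 (adjusted p = 0.100), and the median of the 10 genes was 0.00 beside 0.07 over all tested genes.

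In the authors' deposited table, a DESeq2 comparison of M2 over LUC, CCND1 had a log2 fold change of -0.50 (p = 0.0318, adjusted p = 0.523). RB1 had a log2 fold change of -0.35 there (p = 0.0474, adjusted p = 0.638 in the authors' deposited table). The authors' deposited table gave all 10 genes the same sign as edgeR did and called 0 of them at 0.05, beside 283 genes lower and 68 higher among 18997 with an adjusted p. The base mean of CDK6 in the authors' deposited table was 4.23 times the mean count of the 4 libraries and that of CCND1 0.765 times. The libraries behind that table are not named in the sources used here. DESeq2 on the 4 libraries used here gave log2 fold changes close to the authors' values. They were -0.52 for CCND1, -0.36 for RB1, -0.17 for CDK6 (-0.16 in the authors' deposited table) and 0.03 for CDKN2A (0.04 there). The shared signs are therefore not taken as an independent check.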

How the data were processed

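The deposited values of each library are unnormalized counts of fragments for each Ensembl gene. Per the submitters' processing notes, the authors used Trim Galore 0.3.7, STAR 2.5.3, featureCounts of Subread 1.4.6, Picard and GRCh37. Per the file headers, read pairs were counted unstranded, and the names of the alignments mark duplicate removal. A further table deposited by the authors holds log2 fold changes with standard errors, a Wald statistic (a score), p-values, a base mean (a signal, normalized counts averaged over libraries) and exonic length in bp, with gene symbols and GRCh37 coordinates. Its 4 count columns stayed unused, and each count file had 1 blank line that was dropped.

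The members and lists were chosen with earlier results of these data known. Genes were tested in R 4.3.3 with edgeR 4.0.16 (quasi-likelihood F test, TMM scaling, default filter, group as the only term), with Benjamini-Hochberg adjustment over 17172 genes and a threshold of 0.05. Total counts per library are given with the results, and the biological coefficient of variation was 9.81%. CPM used TMM-scaled library sizes. TPM came from the counts and the deposited exonic length. Named genes were the 10 members, NSD2, up to 2 genes per direction past the threshold in each pathway list, nearest and overlapping tested genes, and the 5 genes most like CCND1 among those of at least 5 CPM. SLAMF7, CD38 and CR2, marker genes outside that rule, and the members of lists spelled out in the text were named after their values were seen.

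Alternatives were scaling by RLE, by the upper quartile or by library size alone, a fit without a filter, a filter of 1 CPM in 2 libraries, DESeq2 1.42.0, limma-voom (limma 3.58.1), robust empirical Bayes, a replicate block and leaving out each library, where the lone library of a group was assumed to vary like the other group. Smooth GC content and length terms, for the 96.3% of tested genes with a GC value, were added after the data were seen, alone and with the block. Figures were drawn with matplotlib 3.10.9.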

Additional observations from a re-analysis of the deposited data

How the results depend on the processing

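The calls of CCND1 and RB1 moved with the setting while their signs did not. Main counts were 0 lower and 0 higher among the 10 genes and 3 lower and 1 higher among the 71 pathway genes. Without a filter on low counts these were 2 lower among the 10 and 7 lower among the 71, and with DESeq2 1 and 5, beside 4.71% and 4.17% of all genes. Leaving out each library in turn gave 0 to 1 lower among the 10, and 2 to 8 lower and 0 to 1 higher among the 71. Upper-quartile scaling, library-size scaling and the stricter filter each left 0 higher among the 71, beside 1.51%, 1.39% and 1.68% of all genes. GC content and length terms gave 3, beside 4.03% of all genes. RLE scaling, limma-voom and robust empirical Bayes kept all of these counts within 1.5 times. The cause of these shifts was not tested.

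The labels do not say that equal library numbers mark a pair. Deviations of same-numbered libraries from their group means had a correlation of 0.24 across tested genes, a value that 2 libraries a group make identical for both numbers. With the replicate block, 2 of the 10 genes were lower (CCND1, adjusted p = 0.000896, and RB1, 0.00313), and 10 of the 71 were lower and 4 higher, while calls over all genes went to 1992 lower (11.6%) and 1327 higher (7.73%). NSD2 passed there too (log2 fold change -0.32, adjusted p = 0.0197). With the block and the GC content and length terms, added after the data were seen, 2 of the 10 were lower and 1, CDKN1B, higher (adjusted p = 0.00742), with 12 lower and 10 higher among the 71, beside 11.5% lower and 19.9% higher over all genes.

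As shares of fragment counts without the correction for length, in control libraries and in those labelled knockdown, CCND1 took 4.26% and 3.40% and CCND2 92.1% and 93.0% of the D cyclins. CDK4 took 50.3% and 54.4% and CDK6 49.7% and 45.6% of the kinases. CDKN2A took 52.4% and 51.1%, CDKN2C 43.4% and 45.0% and CDKN2D 4.28% and 3.87% of the INK4 genes, so that CDKN2A rather than CDKN2C led them. This difference between the units follows from the exonic lengths by construction.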
